A study of Mus musculus with 6 samples.

Results

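The striated myosin heavy chain genes are the motor protein genes of muscle sarcomeres, and 8 of them (Myh1, Myh2, Myh3, Myh4, Myh6, Myh7, Myh7b and Myh8) were followed here across 5 libraries of brown adipose tissue. The genes were taken from a fixed list of symbols, and each matched 1 of the 45320 Ensembl gene identifiers in the deposited tables. The genes were selected on the FPKM values of Myh4, Myh7 and muscle markers in these same libraries, which were known when the list was drawn up. Their levels, and all shares and ratios made from them, are therefore a description, with no test. All mice were C57BL/6 and began a calorie-rich diet, high in sugar and fat, at 4 weeks of age. After 4 weeks on it, 1 group stayed on that diet alone (untreated 13, 14 and 15) and another received it supplemented with the small molecule RO5508887, which inhibits the protease BACE1 (samples 17, 33 and 35). The tables of samples 33 and 35 held 45320 identical values, so differed by less than sampling noise, and were counted as 1 sample, called treated 33/35. This leaves 3 untreated and 2 treated libraries, and how long the drug was given, the dose and the fat depot were not stated in the labels. The labels do not say that each sample came from its own animal, and the p-values below cover the spread of these samples alone, which can be technical.

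A sarcomere is built from thick filaments of myosin that pull on thin filaments of actin, and the heavy chain carries the motor that splits ATP. Each muscle fibre uses mainly 1 adult heavy chain, which sets much of its speed: Myh7 encodes the slow type I chain, Myh2 the fast IIa chain, Myh1 the IIx chain and Myh4 the IIb chain, the fastest. Myh3 (embryonic) and Myh8 (perinatal) belong to developing and regenerating muscle, Myh6 encodes the alpha chain of heart muscle, and Myh7b is an ancient member related to the slow chains. Brown adipocytes burn fuel for heat and are not known for sarcomeres, although they share a developmental lineage with skeletal muscle.

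In the mouse genome (GRCm38, GENCODE M21) 5 of the 8 genes stand in 1 cluster on the plus strand of chromosome 11, in the order Myh3, Myh2, Myh1, Myh4 and Myh8. With Myh13, which follows them, the cluster runs from 67078300 to 67371586. Myh6 (chromosome 14, 54941921 to 54966927) and Myh7 (chromosome 14, 54970684 to 54994626) lie head to tail on the minus strand, with 3756 bases between them. Myh7b stands alone on chromosome 2 (155611212 to 155634307, plus strand).

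The upstream sequences of the adult fast genes and Myh8 are shown because these genes share a run of bases that the slow gene Myh7 does not hold. Each is the stretch of 250 bases before a start site annotated by RefSeq on GRCm38.p6, for Myh1 chr11:67199852-67200101, for Myh2 chr11:67170777-67171026, for Myh4 chr11:67237562-67237811 and for Myh8 chr11:67276874-67277123, all on the plus strand. For Myh7 it is chr14:54994627-54994876 on the minus strand. All are written 5′ to 3′. Capitals mark the longest run common to Myh1, Myh2, Myh4 and Myh8 and, nearest the start, the letters TATAAA on the strand shown.
Myh1: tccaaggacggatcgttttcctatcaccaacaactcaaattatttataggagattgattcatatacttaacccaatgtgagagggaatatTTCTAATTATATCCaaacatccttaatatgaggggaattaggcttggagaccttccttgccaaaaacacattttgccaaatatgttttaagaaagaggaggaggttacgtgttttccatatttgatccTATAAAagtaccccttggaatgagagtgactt
Myh2: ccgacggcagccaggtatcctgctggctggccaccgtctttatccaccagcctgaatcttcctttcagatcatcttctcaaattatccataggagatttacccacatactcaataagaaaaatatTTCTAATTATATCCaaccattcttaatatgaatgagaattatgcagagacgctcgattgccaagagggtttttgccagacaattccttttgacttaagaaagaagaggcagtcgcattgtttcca
Myh4: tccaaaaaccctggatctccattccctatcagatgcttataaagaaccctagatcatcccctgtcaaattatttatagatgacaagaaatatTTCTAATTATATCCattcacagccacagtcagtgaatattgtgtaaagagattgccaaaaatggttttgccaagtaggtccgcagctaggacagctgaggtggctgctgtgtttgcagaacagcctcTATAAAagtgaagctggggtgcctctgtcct
Myh8: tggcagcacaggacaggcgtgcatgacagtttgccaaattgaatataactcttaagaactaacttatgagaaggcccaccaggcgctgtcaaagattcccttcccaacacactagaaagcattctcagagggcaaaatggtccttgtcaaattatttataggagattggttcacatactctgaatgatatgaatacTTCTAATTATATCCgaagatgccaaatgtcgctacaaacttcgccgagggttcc
Myh7: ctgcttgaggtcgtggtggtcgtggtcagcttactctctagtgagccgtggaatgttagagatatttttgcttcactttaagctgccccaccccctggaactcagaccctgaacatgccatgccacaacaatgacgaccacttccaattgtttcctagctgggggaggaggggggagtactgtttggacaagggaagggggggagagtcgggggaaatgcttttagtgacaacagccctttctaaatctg
The shared run, TTCTAATTATATCC, holds neither of the other motifs searched, is 14 bases long and begins 160 bases before the start of Myh1, 125 before that of Myh2, 158 before that of Myh4 and 54 before that of Myh8. Of 32851 upstream windows of this length in the RefSeq table, 4 held it on either strand (0.0122%), and they belong to these 4 genes. The letters TATAAA were found on either strand in 12.4% of the windows, and among the 8 genes in those of Myh1, Myh3, Myh4 and Myh8. The E-box letters CANNTG occurred on either strand in 66.2% of the windows and in 6 of the 8 genes, not in those of Myh1 and Myh2. A match describes letters and not a bound site, and a missing match says only that the letters are not in this window.

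Myh6, Myh7 and Myh7b each carry a microRNA within the gene, a small RNA that pairs with messenger RNAs mainly through its seed, bases 2 to 8. Mir208a lies in Myh6, Mir208b in Myh7 and Mir499 in Myh7b. The mature sequences, from RefSeq, are shown with the seed in capitals because they tie the slow and cardiac genes together.
miR-208a-3p: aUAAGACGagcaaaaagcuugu
miR-208b-3p: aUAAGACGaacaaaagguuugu
miR-499-5p: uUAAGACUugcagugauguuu
The seeds of miR-208a-3p and miR-208b-3p are identical, and the seed of miR-499-5p shares the run UAAGAC with them. Counted from the 5′ end, miR-208b-3p differs from miR-208a-3p by G10A, A16G and C18U. All 3 microRNA genes were listed at 0 FPKM in all 5 libraries, which were made from total RNA and not described as small RNA libraries.

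Values are FPKM, fragments per length of transcript and per sequencing depth, so levels of different genes can be set side by side. The number of reads behind a value is unknown. A value of 0 may stand for an estimate that failed, so it is called a listed 0. Between 20876 and 21726 genes had a value above 0 in a library. Steps between low values put the depth of the other libraries at 0.810 to 1.01 times that of untreated 13. The tissue label was borne out by Ucp1, the heat-producing uncoupling protein, at 1837 and 1912 FPKM in untreated 13 and 15, 1119 and 1321 in treated 17 and 33/35, and 227 in untreated 14. Summed over all 10 brown adipocyte genes listed, the level was 8454 FPKM in untreated 13, 2942 in untreated 14, 8292 in untreated 15, 6305 in treated 17 and 7388 in treated 33/35. Untreated 14 therefore stood apart from the other untreated libraries in the tissue's own genes, and results that rest on it are given with and without it.

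Summed over the 8 genes, heavy chain transcripts differed more between the untreated libraries than between the groups. The sum was 3.41 FPKM in untreated 13, 2447 in untreated 14 and 3.17 in untreated 15. Treated 17 had a sum of 816 FPKM and treated 33/35 of 359 FPKM. Both treated libraries were thus below untreated 14 and above untreated 13 and 15. As a part of all FPKM outside mitochondrial genes, the 8 genes took 0.503% in untreated 14, 0.165% and 0.0716% in treated 17 and 33/35, and 0.000654% and 0.000630% in untreated 13 and 15. The brown adipocyte genes were lowest where the heavy chains were highest, and the part of this in the heavy chain levels was not tested. In bulk tissue, fewer muscle cells and less RNA per muscle cell cannot be told apart.

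The slow chain Myh7 was the most abundant heavy chain in untreated 14 and treated 33/35. It stood at 1115 FPKM in untreated 14 but at 0.588 and 0.453 in untreated 13 and 15, with 265 in treated 17 and 140 in treated 33/35. Untreated 14 was high, untreated 13 and 15 were below 1 FPKM, and the groups overlapped. The untreated mean was 372 ± 644 FPKM (SD, n = 3) and the treated mean 202 ± 88.3 FPKM (SD, n = 2), whereas the difference of the log2(FPKM + 0.5) means, treated minus untreated, was 4.20. The sign thus depended on the scale, with 1 library carrying the untreated mean. Without untreated 14 the log2 difference was 7.56, and without untreated 13 or 15 it was 2.56 or 2.47.

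The IIx chain Myh1 was the most abundant heavy chain in treated 17. It measured 0.445 FPKM in untreated 13, 705 in untreated 14 and 0.435 in untreated 15, then 299 in treated 17 and 106 in treated 33/35. Myh2, the IIa chain, stood at 554 FPKM in untreated 14 but at 0.312 and 0.247 in untreated 13 and 15, with 232 in treated 17 and 102 in treated 33/35. Both genes had the library order of Myh7, with untreated 14 highest, treated 17 next and treated 33/35 after it. Their log2 differences were 4.39 and 4.47, and without untreated 14 they were 7.57 and 7.63. In FPKM, the treated mean of Myh1 was 203 against an untreated mean of 235, so it too had the opposite sign on that scale. Myh1 stood above Myh2 by a ratio of 1.27 in untreated 14 and 1.29 in treated 17, but of 1.05 in treated 33/35.

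The IIb chain Myh4 had the reverse pattern. It measured 1.96 and 1.91 FPKM in untreated 13 and 15, more than any other of the 8 there, and was listed at 0 in untreated 14, treated 17 and treated 33/35, where its neighbours Myh1 and Myh2 exceeded 100 FPKM. At least 1 FPKM in both untreated 13 and untreated 15 was reached by 10896 protein-coding genes. Of these, Myh4 was the only 1 listed at 0 in the other 3 libraries. That count adds no support, because the values of Myh4 were used in the selection. It also depends on the cut of 1 FPKM. Fabp1, at 2.05 and 0.858 FPKM in untreated 13 and 15, was listed at 0 in the same 3 libraries. The mean of Myh4 over the libraries, 0.775 FPKM, left it below the filter of 1 FPKM used in the gene test, which the other 7 passed. Without read counts a listed 0 is no measure of absence.

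Myh4 shares sequence with its neighbours, which bears on how reads can be divided between them. Of the runs of 50 bases in its longest coding transcript, 18.6% also occur in a transcript of another of the 8 genes. The shared part was 10.6% for Myh1, 10.1% for Myh2 and 9.52% for Myh8. Myh1 and Myh2 had the highest shares in any other member, 26.1% and 26.7%. Values of these 4 genes are therefore uncertain to the extent that shared reads were split, and how the authors divided them was not given in the sources used here. The part of shared reads in the Myh4 values was not tested.

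**Figure D1:**
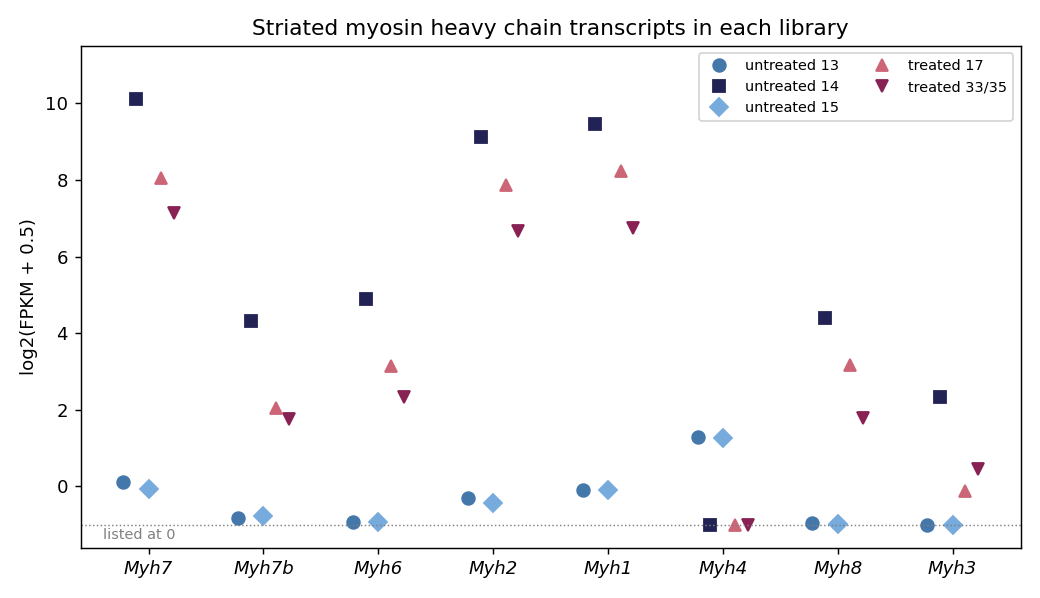
Levels of the 8 heavy chain genes, as log2(FPKM + 0.5) on the y axis, with 1 symbol for each library and the dotted line at the position of a listed 0. Myh7, Myh1 and Myh2 lie highest in untreated 14 (1115, 705 and 554 FPKM), while Myh4 lies on the line in the 3 libraries where the others are high.

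The developmental chains had low listed levels beside the adult ones. Myh8, the perinatal chain, measured 0.0129 FPKM in untreated 13, 20.6 in untreated 14 and 0.00639 in untreated 15, then 8.54 in treated 17 and 2.92 in treated 33/35. Myh3, the embryonic chain, reached 4.51 FPKM in untreated 14, with 0.421 in treated 17 and 0.865 in treated 33/35, and was listed at 0 in untreated 13 and 15. Myh8 kept close to Myh1 in ratio, at 2.93% of its level in untreated 14, 2.86% in treated 17 and 2.74% in treated 33/35. Myh3 did not have the common order, being lower in treated 17 than in treated 33/35. It passed the filter, with a mean of 1.16 FPKM, through untreated 14 alone. Its log2 difference of 0.057 turned negative without untreated 13 or 15 (-0.50 in each case), without treated 33/35 (-0.23), with quantile normalization (-0.020) and with a pseudocount of 1 (-0.12), and was 1.16 without untreated 14.

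The cardiac chain and Myh7b were at a few percent of Myh7 in the libraries with muscle transcripts. Myh6 stood at 28.9 FPKM in untreated 14 but at 0.0274 and 0.0234 in untreated 13 and 15, with 8.30 in treated 17 and 4.55 in treated 33/35. Relative to Myh7 this was 2.60% in untreated 14, 3.14% in treated 17 and 3.26% in treated 33/35. Myh7b measured 0.0606 FPKM in untreated 13, 19.4 in untreated 14 and 0.0896 in untreated 15, then 3.65 in treated 17 and 2.86 in treated 33/35, and its ratio to Myh7 was 1.74%, 1.38% and 2.05% in those 3 libraries. Both were thus high where Myh7 was high. Of the runs of 50 bases in Myh6, 22.6% occur in Myh7 transcripts, whereas Myh7b shared 0% with any other member. The part of shared reads in the Myh6 level was not tested. Of 8 heart muscle genes, 3 to 5 were listed at 0 in each library. Nppb and Myl7 were listed at 0 in all 5 libraries, Nppa reached 0.067 FPKM and Mybpc3 0.013 FPKM. Tnni3, the cardiac troponin I, was at 0.0784 to 0.578 FPKM, and at 0.170 in untreated 14. Ryr2, the calcium release channel of heart, was lowest in untreated 14, at 0.323 FPKM against 1.55 to 2.95 in the other 4. Pln, which restrains the slow calcium pump, was highest in untreated 14, at 2.04 FPKM against 0.527 to 1.14. Sarcolipin (Sln), on the same list and also a gene of slow and developing skeletal muscle, reached 147 FPKM in untreated 14, with 35.5 in treated 17 and 10.3 in treated 33/35, and was listed at 0 in untreated 13 and 15. The summed level of the 8 heart genes was 3.55 and 3.62 FPKM in untreated 13 and 15, 150 in untreated 14, 38.8 in treated 17 and 13.9 in treated 33/35, and in those last 3 Sln was its largest member.

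The mix of heavy chains differed among the 3 libraries that held muscle transcripts. Myh7 made up 45.6% of the summed heavy chain FPKM in untreated 14, 32.4% in treated 17 and 38.9% in treated 33/35. Myh1 made up 28.8%, 36.6% and 29.7%, and Myh2 22.6%, 28.4% and 28.3%, in the same order. Treated 17, with the lowest slow share of the 3, had the highest IIx share. Myh3 and Myh8 together made up 1.03%, 1.10% and 1.05%. Untreated 14 thus had the most Myh7 in relative as well as in absolute terms. With Myh4 listed at 0 in these 3 libraries, the IIb part of the mix is unknown and the shares describe the other 7 chains.

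In untreated 13 and 15 the listed mix had another form, at levels near the lower end of the scale. Myh4 made up 57.5% and 60.4% of the summed FPKM, Myh7 17.3% and 14.3%, Myh1 13.1% and 13.7%, and Myh2 9.17% and 7.79%. With Myh4 left out of the whole, a choice made after the values were seen, Myh7 took 40.7% and 36.1%, against 32.4% to 45.6% in the other 3 libraries. The difference in the mix between the 2 sets of libraries thus lay mainly in Myh4.

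**Figure D2:**
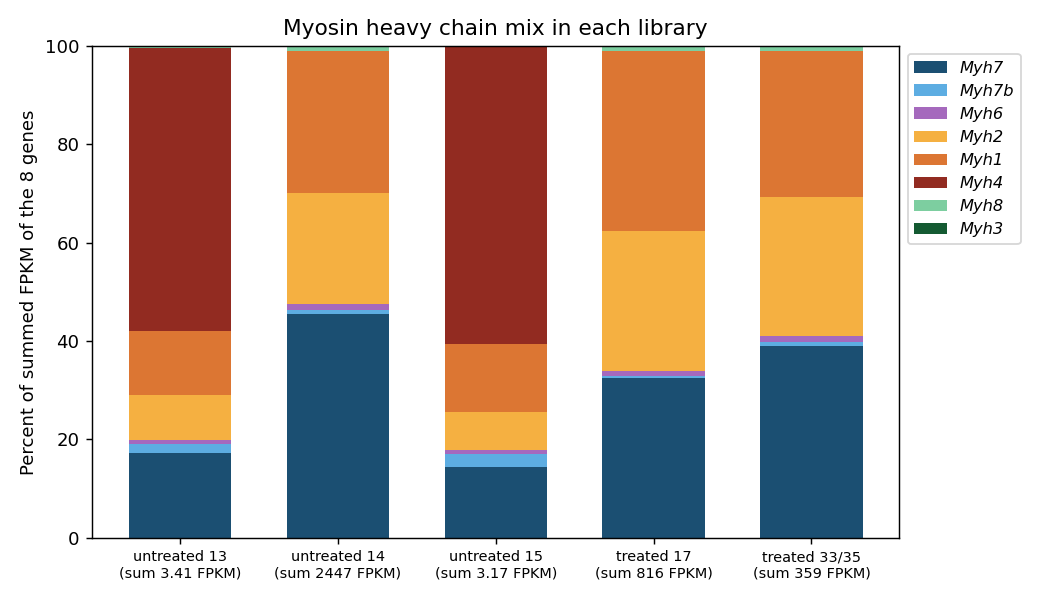
Percent of the summed FPKM of the 8 genes (y axis) taken by each gene in each library (x axis, with the sum in FPKM under the name). Myh7, Myh1 and Myh2 fill the bars of untreated 14, treated 17 and treated 33/35, while Myh4 takes 57.5% and 60.4% in untreated 13 and 15, whose sums are 3.41 and 3.17 FPKM.

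Other muscle genes with a slow and a fast form, of the sarcomere and of calcium handling, gave an account of the fibre types that uses none of the heavy chains. Over 9 such pairs, the slow forms took 30.8% of the summed FPKM in untreated 14, 19.2% in treated 17 and 23.6% in treated 33/35. In 8 of 9 pairs the slow share was highest in untreated 14, then in treated 33/35 and lowest in treated 17, the order of the Myh7 share. In the pair of calcium pumps, Atp2a2 (slow) and Atp2a1 (fast), untreated 14 and treated 33/35 were at 19.2% and 19.3% and treated 17 at 12.7%. Atp2a2 stood at 845 and 179 FPKM in untreated 14 and treated 33/35, but also at 107 and 98.1 in untreated 13 and 15. Myl1, the fast form of another pair, was at 2491 and 608 FPKM, and at 120 and 117, in the same libraries. The part of other cells in the shares of these pairs was not tested. The troponin I pair, Tnni1 and Tnni2, gave 25.9%, 13.8% and 16.8% in untreated 14, treated 17 and treated 33/35. The regulatory light chains Myl2 and Mylpf gave 48.0%, 32.3% and 38.4%, close to the Myh7 share in each library. The pairs ranged widely, from 8.65% for the calsequestrins Casq2 and Casq1 to 71.8% for the myosin binding proteins Mybpc1 and Mybpc2 in untreated 14. Myh7 made up 47.0%, 33.3% and 40.2% of the 4 adult chains in these libraries, above the slow share over the pairs in each.

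In untreated 13 and 15 the pairs were led by transcripts that stay abundant where other muscle genes are near 0. Atp2a2, the pump also used by non-muscle cells, measured 107 and 98.1 FPKM there, and Myl1, an alkali light chain, 120 and 117 FPKM. With those 2 pairs left out, chosen after the values were seen, the slow share over 7 pairs was 29.9% and 27.9% in untreated 13 and 15, 33.7% in untreated 14, and 21.5% and 26.1% in treated 17 and 33/35. Treated 17 was lowest of the 5 by this measure too.

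**Figure D3:**
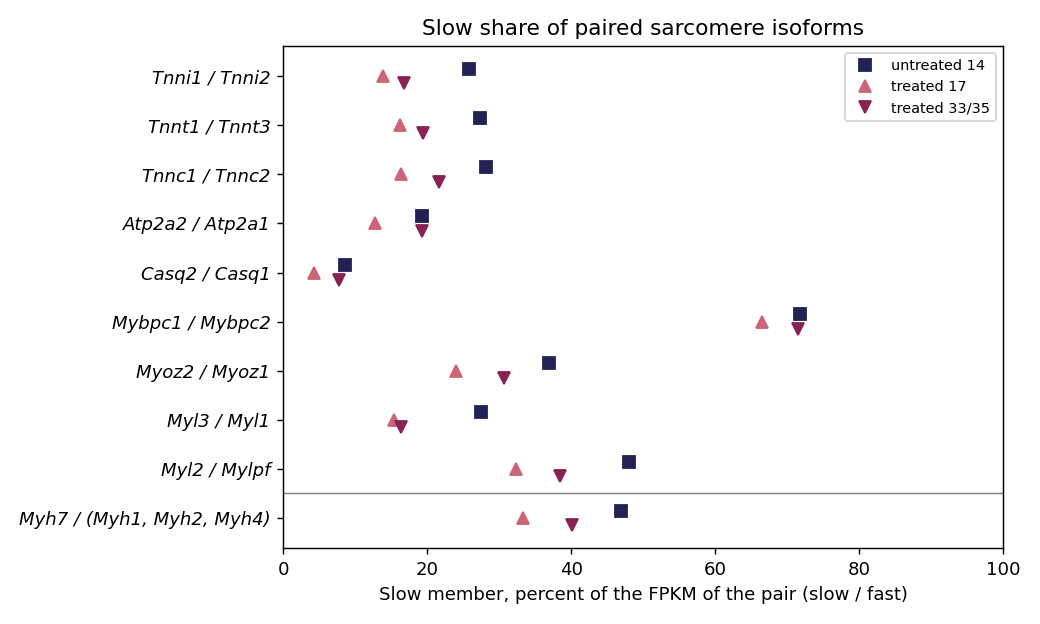
Slow form as a percent of the FPKM of each slow and fast pair (x axis) in the 3 libraries with muscle transcripts, 1 symbol for each library. The last line gives Myh7 as a percent of Myh1, Myh2, Myh4 and Myh7 together. Treated 17 lies lowest in every line, and untreated 14 highest in all lines except that of the calcium pumps, where it is at 19.2% and treated 33/35 at 19.3%.

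The unequal mix also shows in the ratio of untreated 14 to each treated library. For Myh7 it was 4.21 over treated 17 and 7.98 over treated 33/35, for Myh1 2.36 and 6.62, and for Myh2 2.39 and 5.45. Between untreated 14 and treated 17 the gap was thus wider for Myh7 than for the fast chains. The 13 slow fibre genes had a median ratio over treated 17 of 4.20 (range 2.49 to 5.35) and the 13 fast fibre genes 2.21 (range 1.97 to 2.67). All tested genes had a median of 0.965. Over treated 33/35 the medians were 7.06, 5.37 and 0.902, and the lists overlapped widely, from 4.71 (Atp2a2) to 10.1 (Myoz2) for slow and from 4.10 (Myl1) to 8.32 (Actn3) for fast genes. These are ratios of single libraries, with no replicate check.

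**Figure D4:**
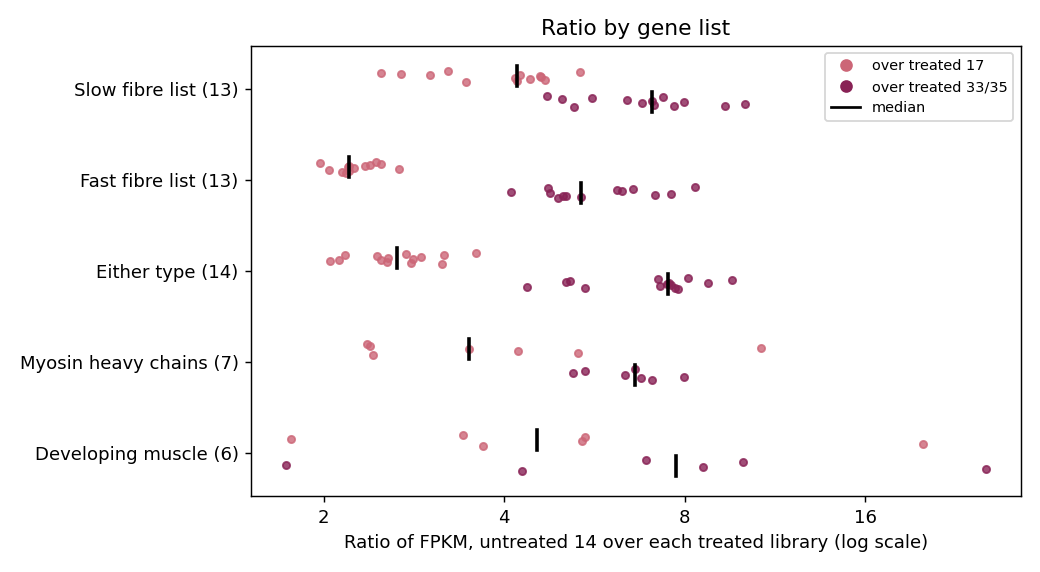
Ratio of FPKM in untreated 14 to FPKM in each treated library (x axis, log scale), with 1 point for each gene that passed the filter and a bar at the median of the list. The median of the slow list lies to the right of that of the fast list over treated 17 (4.20 and 2.21) and over treated 33/35 (7.06 and 5.37), and the lists overlap in both, more widely over treated 33/35.

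The heavy chains also differed from the muscle creatine kinase Ckm, a gene of both fibre types, in how they scaled between libraries. Ckm measured 2733 FPKM in untreated 14, 1262 FPKM in treated 17, 531 FPKM in treated 33/35, and 2.25 and 1.46 FPKM in untreated 13 and 15. Per unit of Ckm, Myh7 was at 0.408 in untreated 14, 0.210 in treated 17 and 0.263 in treated 33/35. Myh1 and Myh2 together were at 0.461, 0.420 and 0.392 per unit of Ckm. The fast chains thus stayed nearer to Ckm than Myh7 did across these 3 libraries. Ckm itself scaled like the fast list, so it is not a neutral reference between the fibre types here. Its ratios of untreated 14 to treated 17 and 33/35 were 2.17 and 5.15. The list medians were 2.21 and 5.37 for fast and 4.20 and 7.06 for slow genes.

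The genes nearest to Myh7 in pattern were other muscle genes. The measure was the root mean square difference between log2(FPKM + 0.5) values, each taken relative to the gene's own mean over the 5 libraries, among 12318 protein-coding genes. Myl2, the slow regulatory light chain, was nearest, at 0.10. Mybpc1, the slow myosin binding protein C, followed at 0.17, Cox6a2, a muscle subunit of cytochrome oxidase, at 0.19, Tnnc1, the slow troponin C, at 0.22, and Ckmt2, the mitochondrial creatine kinase of muscle, at 0.22. Myh2 and Myh1 came 7th and 8th, at 0.28 and 0.29. The 5 libraries are few points, and this ranking describes them only. Nearest to Myh4 were Fabp1, Pet117, Rspo4, Mfsd2a and Fam131c, at 0.34 to 0.59. None of these 5 exceeded 2.93 FPKM in any library, so the likeness rests on low values.

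Non-coding genes of the fast cluster had the library order of Myh1 and Myh2 and not that of Myh4. The long non-coding RNA 2310065F04Rik, between Myh3 and Myh2 on the opposite strand, stood at 25.8 FPKM in untreated 14 but at 0.0158 and 0 in untreated 13 and 15, with 13.7 in treated 17 and 2.19 in treated 33/35. Myhas, named after its values were seen, is antisense to Myh1 over 13320 bases and its nearer end lies 455 bases before the GENCODE start of Myh4. It measured 0.219 FPKM in untreated 13, 201 in untreated 14 and 0.124 in untreated 15, then 89.5 in treated 17 and 30.8 in treated 33/35. The antisense gene 9430073C21Rik, which overlaps Myh2 by 1838 bases, reached 27.1 FPKM in untreated 14, and Mhrt, antisense to Myh7 over 3666 bases, 4.79 FPKM. Both were also picked after their values were seen. Whether the libraries kept strand is not stated in the labels, so reads of these genes and of the heavy chains they overlap cannot be told apart.

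The comparison of treated with untreated libraries called none of the fast or slow fibre genes. With limma over 13527 genes, 4 were higher and 2 lower in the treated libraries, or 0.0296% and 0.0148% of those tested. Of the 26 fast and slow fibre genes, all of which were tested, 0 passed in either direction, and 0 had an unadjusted p under 0.05. The median log2 difference was 4.27 for the fast list and 3.75 for the slow list, against 0.06 for all genes tested. Tnnt3, the fast troponin T, had a log2 difference of 4.61 (SE 3.27, limma adjusted p = 1), and Tnnt1, the slow troponin T, 3.92 (SE 3.32, limma adjusted p = 1). Their standard errors reflect the spread within the untreated group, from 5.95 and 4.66 FPKM of Tnnt3 in untreated 13 and 15 to 4125 FPKM in untreated 14. All 26 genes had the order untreated 14, treated 17, treated 33/35 and then untreated 13 and 15, which 12.9% of all genes tested had. Muscle marker levels of these libraries were known when the lists were drawn up, so counts of this order, here and below, add no support.

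Without untreated 14 the calls changed. Then 1.11% of 13368 genes were called higher and 0.0673% lower in the treated libraries, and 13 of 13 fast and 11 of 13 slow fibre genes rose. Tnnt3 rose by a log2 difference of 7.77 (SE 0.42, limma adjusted p = 0.0129) and the slow light chain Myl2 by 7.43 (SE 0.27, limma adjusted p = 0.00897). Atp2a2 and Myl6b were the slow fibre genes that did not pass, with 1.08 (SE 0.20, limma adjusted p = 0.143) and 0.73 (SE 0.21, limma adjusted p = 0.312). In that comparison every treated library also held more muscle RNA than either untreated one, so treatment and muscle RNA cannot be told apart. Muscle marker levels were known when the genes and lists were drawn up. The calls of muscle genes without untreated 14, here and below, could therefore be foreseen. Their p-values describe this split of the libraries and add no support.

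Genes that fold and assemble myosin followed the heavy chains in part. Unc45b, a chaperone of the myosin motor, stood at 86.1 FPKM in untreated 14 but at 14.0 and 20.3 in untreated 13 and 15, with 42.9 in treated 17 and 23.4 in treated 33/35. It was thus present in the libraries whose heavy chains were near 0. The M-band genes Myom1 and Myom2 reached 238 and 209 FPKM in untreated 14. Hsp90aa1, a general chaperone, ran the other way, with 180 and 112 FPKM in untreated 13 and 15 and 58.3 FPKM in untreated 14. Of the 8 genes, 7 had the common order of the libraries, which 12.9% of all genes tested had. Between groups 0 passed limma, with 0 at an unadjusted p under 0.05. Without untreated 14, Myom1 rose by a log2 difference of 4.29 (SE 0.48, limma adjusted p = 0.0472) and Myom2 by 6.27 (SE 0.45, limma adjusted p = 0.0198). In that fit 3 of the 7 tested were called higher, against 1.11% of all genes.

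Genes of developing or regenerating muscle were mostly highest in untreated 14, as Myh3 and Myh8 were. Myog, a transcription factor of muscle differentiation, reached 30.8 FPKM in untreated 14, with 1.54 in treated 17 and 1.21 in treated 33/35, and was listed at 0 in untreated 13 and 15. Its ratio of untreated 14 to treated 17 was 20.0, beyond that of any tested heavy chain gene, of which Myh3 had the highest at 10.7. Chrna1, a subunit of the acetylcholine receptor, reached 12.2 FPKM in untreated 14, with 2.23 in treated 17 and 1.22 in treated 33/35. Of the 11 genes, 10 were highest in untreated 14, a count for which no share over all genes was computed. The common order of the libraries was held by 7 of the 11, among them Myf5 and Pax7, which did not pass the filter. Over all genes that passed, the share was 12.9%, so the bases differ. For genes that passed only through untreated 14, the highest value there was built in, and their order adds no support. Of the 11, 6 passed the filter, and the others had low values. None of the 6 was called between the groups, with limma adjusted p of 1 and 0 at an unadjusted p under 0.05. Of these, 4 (Myod1, Myog, Chrna1 and Tnnt2) passed the filter only through untreated 14. Without it 2 were tested and 0 called, Myl4 with a limma adjusted p of 0.454 and Actc1 with 0.181, of which 1 had an unadjusted p under 0.05.

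Regulators of fibre type differed widely among themselves in how far they ranged across libraries. Mef2c, a transcription factor that drives muscle genes, measured 4.43 FPKM in untreated 13, 173 in untreated 14 and 3.70 in untreated 15, then 59.3 in treated 17 and 29.9 in treated 33/35. Vgll2, a cofactor of muscle transcription factors, ranged from 0.0307 FPKM in untreated 13 to 49.4 in untreated 14, and Prox1, a transcription factor of slow fibres, from 0.0154 in untreated 15 to 4.72 in untreated 14. Mef2d ranged from 32.7 to 78.5 FPKM, Ppp3ca, the catalytic subunit of the phosphatase calcineurin, from 18.3 to 63.4 FPKM, and Thra, a thyroid hormone receptor, from 44.0 to 69.9 FPKM. The 19 of 20 regulators that passed the filter had a median ratio of untreated 14 to treated 17 of 1.90. Prox1 had the highest, at 4.41, but passed the filter only through untreated 14. Of the 19 tested, 15 had the common order of the libraries, which 12.9% of all genes tested had. Of the 19 tested, limma called 0 between the groups, with 0 at an unadjusted p under 0.05. Without untreated 14 Mef2c and Vgll2 rose (limma adjusted p = 0.0434 and 0.0274). They were 2 of 18 tested, against 1.11% of all genes called higher in that fit.

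Heavy chains of non-muscle and smooth muscle cells were above 2 FPKM in every library. Myh9, the main non-muscle chain, was at 32.2 FPKM in untreated 14, close to the 35.7 and 35.2 of untreated 13 and 15, with 34.7 in treated 17 and 31.8 in treated 33/35. Myh11, the smooth muscle chain, measured 9.66 FPKM in untreated 13, 13.1 in untreated 14 and 5.70 in untreated 15, then 11.1 in treated 17 and 6.36 in treated 33/35. The non-muscle chains Myh10 and Myh14 were highest in untreated 14, at 20.7 and 13.0 FPKM. Myh13, the extraocular muscle chain at the end of the fast cluster, measured 8.21, 6.86 and 0.988 FPKM in untreated 14, treated 17 and treated 33/35, and was listed at 0 in untreated 13 and 15. Of the 5 tested genes of this list, limma called 0, with 0 at an unadjusted p under 0.05 and, without untreated 14, also 0 called and 3 at that level. Summed smooth muscle, endothelial and macrophage markers were 167, 119 and 126 FPKM in untreated 14, against 47.6 to 103, 146 to 157 and 82.3 to 125 FPKM in the other 4 libraries. The nerve and Schwann cell markers summed to 54.7 FPKM there and 146 to 194 FPKM in the others, mostly S100b. The part of these cells in the heavy chain levels was not tested.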

How the data were processed

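Trizol was used to extract RNA from the tissue, and libraries followed an Illumina procedure for total RNA, per the labels. For each of 6 samples the authors deposited a table of FPKM by Ensembl gene. The submitters' processing notes list CASAVA 1.7 and the genome build GRCm38. Which aligner and which program gave the FPKM was not given in the sources used here. Symbols and positions came from GENCODE M21 (GRCm38), which held 44395 of 45320 identifiers. Sequences came from RefSeq tables on GRCm38.p6, in which all 8 genes and the 3 microRNAs were found.

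A gene entered the test if its 5 libraries averaged 1 FPKM or more, and the test was run on log2(FPKM + 0.5) with limma 3.58.1 in R 4.3.3, with empirical Bayes moderation and a variance trend. The tests were two-sided with Benjamini-Hochberg adjustment over all tested genes and a threshold of 0.05 (residual df 3). A fold change on this scale understates the change of low genes. A check of the test on simulated data used the same spread for all genes and no outlying library. It therefore does not cover genes that differed as widely within a group as the fibre type genes did. Shares, ratios and figures were computed with Python 3.11.15, with matplotlib 3.10.9, pandas 2.3.3 and numpy 2.4.6.

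The members, lists and tests were chosen with earlier results of these data known. All 8 heavy chain genes were named, and up to 4 genes of highest mean FPKM from each list. The 5 genes nearest in pattern to Myh7 and to Myh4 and the non-coding genes of the loci were also named. Other names (Nppa, Nppb, Myl7, Mybpc3, Atp2a2, Myl1, Myl6b, Unc45b, Vgll2, Prox1, Actn3, Myod1, Tnnt2, Myhas, 9430073C21Rik, Mhrt and members of the pairs) were chosen after their values were seen. Myh16 and Acta1 matched no identifier and are not analysed here. The values of 1 gene of the myosin assembly list are not reported here. Alternatives covered the pseudocount, filter, scaling, variance model, identical tables and each library left out.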

Additional observations from a re-analysis of the deposited data

How the results depend on the processing

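No paired analysis was possible because the groups share no sample number. Over all genes, 6 were called, and 2 with a pseudocount of 0.1, 1 with a mean of at least 5 FPKM and 0 without a filter on low values, where 522 had an unadjusted limma p under 0.05. Leaving out 1 library at a time gave 0 to 158 calls over all genes (85 to 118 genes at that unadjusted level where the count was 0) and 0 to 24 among the 26 fibre type genes. The highest of both came without untreated 14, and the fibre type count was 0 in the other 12 alternatives. The Myh7 share in untreated 14, treated 17 and treated 33/35 moved by less than the spread between libraries when Myh13 and Myh15 were added and when transcript length was weighted. As a median over the 9 pairs, the slow share was 35.0% in untreated 13, 30.8% in untreated 15 and 19.4% in treated 33/35, and the cause was not tested. Without the pairs of Atp2a2 and Myl1 it was 29.9% in untreated 13 and 27.9% in untreated 15, since those 2 genes supply most of the sums there. Of the heavy chain genes, only Myh3 changed the sign of its log2 difference under the alternatives run. Depth is unknown, so no counting interval or floor could be given, and levels below 1 FPKM carry an error that these tables do not show.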
